A study of Homo sapiens with 5 samples.

Results

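The SR proteins and the heterogeneous nuclear ribonucleoproteins (hnRNPs) are the main families of RNA-binding proteins that decide which exons are kept in an mRNA. Their genes were followed here in IMR-90, a line of normal fibroblasts from human lung, 24 hr after transfection of siRNA. Members were the rows of the table whose symbol is SRSF plus a number or starts with HNRNP, without hyphenated names and pseudogenes. This rule found 37 of 26364 rows, 12 of them SRSF and 25 HNRNP genes. The rule used symbols and no measured value. There were 5 poly(A) mRNA-seq libraries, 2 from Ctr-KD cells with a control siRNA (Ctr-1 and Ctr-2) and 3 from NSD2-KD cells. Each NSD2-KD library received a different siRNA against NSD2, a histone H3 lysine 36 methyltransferase, and is named by it (NSD2-1, NSD2-2 and NSD2-3). All 5 were growing cells with no other treatment given in the labels. Since each NSD2-KD library had its own siRNA, siRNA and replicate cannot be told apart within NSD2-KD cells.

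SR proteins carry RNA recognition motifs and a domain rich in arginine-serine repeats. They bind exonic enhancers and recruit the spliceosome, and phosphorylation of the repeats by SRPK and CLK kinases controls their location and activity. The hnRNPs coat nascent transcripts and often oppose SR proteins at exons, and many also act in export, translation or decay of mRNA. Both families are abundant in dividing cells, and many members limit their own levels by splicing their transcripts into forms that nonsense-mediated decay removes. Gene-level counts sum all spliced forms of a gene, so exon choice was not measured here.

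The libraries held between 2473691 and 2845063 reads on genes, and a level below is a normalized count, the reads on a gene divided by a size factor for its library. The targeted gene, listed as WHSC1, lay at 463 and 443 in the Ctr-KD libraries and at 90.2, 81.9 and 87.9 in the NSD2-KD libraries. Its log2 difference was -2.37 (SE 0.12, adjusted p = 0.000464 from limma). Fibroblast markers summed to between 202238 and 228140 with all 10 detected, whereas the immune, endothelial and epithelial markers PTPRC, CD3E, PECAM1, CDH5, KRT5, KRT14 and SFTPC were at 0 in all 5 libraries. Of the markers with a read, CD68 reached 94 reads and EPCAM, CDH1, VWF, KDR and CD14 at most 6 reads in a library. Ctr-1 and Ctr-2 differed by little more than counting noise (a chi-square of 1.05 per degree of freedom, against 3.87 to 5.29 in the other pairs of libraries). The study's methods call them biological replicates, and they were kept as 2.

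Of the 37 members, 32 had a mean normalized count of at least 10 and were tested, 11 SRSF and 21 HNRNP genes. The others were SRSF12, with at most 1 read in a library, and the hnRNP C-like genes HNRNPCL1, HNRNPCL2, HNRNPCL3 and HNRNPCL4, with no read in any library. A count of 0 allows up to 3 reads, which correspond to between 2.76 and 3.28 normalized counts, and this limit covers counting error only. Of the tested members, 29 had at least 100 reads in every library, and the levels of SRSF8, SRSF10 and HNRNPA1L2 rested on fewer.

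The tested members are spread over 16 chromosomes, with 5 on chromosome 1. In GENCODE on GRCh37, the assembly of the authors' hg19, SRSF7 lies on the minus strand at chr2:38970741-38978636 and HNRNPAB on the plus strand at chr5:177631534-177638164. HNRNPA3 is at chr2:178077422-178088687 (plus), HNRNPH1 at chr5:179041179-179061785 (minus) and HNRNPH2 at chrX:100663210-100669121 (plus). The counts cover the exons of each gene. Exons of 17 tested members overlap another annotated gene, 12 of them on the other strand, and the strand setting of the counting is not given in the sources used here. HNRNPA1 has 74 annotated pseudogenes named after it, HNRNPA3 16 and HNRNPC 9, so reads of these members that match a copy are uncertain.

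The sequences before the transcription start are shown for 4 members, to set 3 genes with lower levels in every NSD2-KD library beside SRSF8, which had higher levels. They are 250 bases from RefSeq on GRCh38.p14, a later build than that of the counts, written 5′ to 3′ toward the gene. Capitals mark matches, on either strand, to the motifs listed in the next paragraph.
SRSF7 (chr2:38751495-38751744, - strand): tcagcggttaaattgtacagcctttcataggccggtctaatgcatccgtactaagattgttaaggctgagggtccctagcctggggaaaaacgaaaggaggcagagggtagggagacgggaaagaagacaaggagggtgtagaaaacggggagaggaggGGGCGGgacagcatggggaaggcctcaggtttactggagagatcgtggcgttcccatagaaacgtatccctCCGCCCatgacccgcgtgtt
HNRNPAB (chr5:178204283-178204532, + strand): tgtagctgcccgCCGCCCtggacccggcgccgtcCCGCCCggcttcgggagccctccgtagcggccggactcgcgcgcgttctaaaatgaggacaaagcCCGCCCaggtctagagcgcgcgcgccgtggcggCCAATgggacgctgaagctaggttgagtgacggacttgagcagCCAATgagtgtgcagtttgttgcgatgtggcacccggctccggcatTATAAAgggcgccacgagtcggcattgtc
HNRNPU (chr1:244864544-244864793, - strand): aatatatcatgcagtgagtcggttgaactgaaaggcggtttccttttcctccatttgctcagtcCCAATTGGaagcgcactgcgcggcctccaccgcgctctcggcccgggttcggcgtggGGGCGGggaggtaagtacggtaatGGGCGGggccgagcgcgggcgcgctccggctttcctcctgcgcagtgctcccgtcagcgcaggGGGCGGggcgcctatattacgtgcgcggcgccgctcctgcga
SRSF8 (chr11:95066627-95066876, + strand): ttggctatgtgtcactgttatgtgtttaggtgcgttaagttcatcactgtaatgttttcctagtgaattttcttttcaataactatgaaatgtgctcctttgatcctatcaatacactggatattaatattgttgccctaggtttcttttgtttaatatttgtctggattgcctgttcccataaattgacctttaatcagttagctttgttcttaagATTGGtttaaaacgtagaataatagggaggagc

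RefSeq windows were found for 30 of the 32 tested members, not for HNRNPA1 and SRSF2. A gene can have several annotated starts, and the values here are for the first window of each gene unless said otherwise. The windows of the members were rich in CpG, with a median of 25 CpG per window against 11 over all genes and a GC content of 65.2% against 58.0%. The range of CpG counts was wide, from 36 down to 2 in SRSF8, a gene that arose as a retrotransposed copy of SRSF2. HNRNPH2, the other member higher in every NSD2-KD library, had 15 CpG, so SRSF8 does not stand for the higher members. The CCAAT box (CCAAT) was present in 15 of 30 members (50%) against 33.0% of 27305 genes, and the GC box (GGGCGG) in 19 (63.3%) against 42.3%. The E2F site GGCGGGAA, which can overlap the GC box, was held by HNRNPLL, HNRNPDL, HNRNPA2B1 and HNRNPK, 4 members (13.3%) against 2.77% of genes. The E2F form GCGCGAAA was in none of the members and 0.469% of genes, and the cell cycle element TTTGAA was in 1 member, SRSF6 (3.33%), against 13.6%. The E-box CACGTG was in 6 (20% against 6.49%), the ETS site CCGGAAG in 5 (16.7% against 8.82%), the NRF1 core GCGCATGC in 1, SRSF10 (3.33% against 2.81%), the TATA box TATAAA in 5 (16.7% against 11.1%) and the YY1 site AAGATGGCG in none (against 0.641%). More than 1 window was listed for 10 of the 30 members (33.3%) and for 19.0% of all genes, and a gene with more windows has more chances of a match. Counted over any window of a gene, the E2F site GGCGGGAA was in 6 members (against 3.31% of genes), the CCAAT box in 18 and the GC box in 20. A match is a stretch of letters and does not show that a factor was bound.

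Levels differed widely among the members in Ctr-KD cells. The largest normalized counts were those of HNRNPA2B1, HNRNPK, HNRNPU and HNRNPA1, all hnRNPs, and the lowest were those of SRSF10, HNRNPA1L2 and SRSF8. Per kilobase of merged exons, the level was 291 ± 3.93 (SD, n = 2) for HNRNPAB, 266 ± 7.09 for HNRNPK, 193 ± 11.9 for SRSF2 and 169 ± 2.29 for HNRNPA1. Each of these neighbours in the order differed by more than its spread, whereas HNRNPUL2, HNRNPC, SRSF1 and HNRNPF lay together at 116.9, 116.8, 116.8 and 116.4 and did not differ beyond theirs. At the other end were HNRNPA1L2 (13.2 ± 1.37), SRSF8 (4.93 ± 0.219) and SRSF10 (1.46 ± 0.139). The order depended on the length used, and with the canonical transcript 7 of the first 10 genes remained among the first 10, with HNRNPK at the top. In NSD2-KD cells HNRNPAB was second to HNRNPK per kilobase (217 ± 29.7 against 235 ± 5.01, SD, n = 3). HNRNPA3 (64.3 ± 24.5) moved from place 13 to 20, beside SRSF3 at 65.4 ± 0.684. HNRNPH2 (84.4 ± 13.0) moved from place 20 to 13, beside SRSF9 at 79.6 ± 15.2. None of these neighbours in NSD2-KD cells differed beyond the spread.

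**Figure D1:**
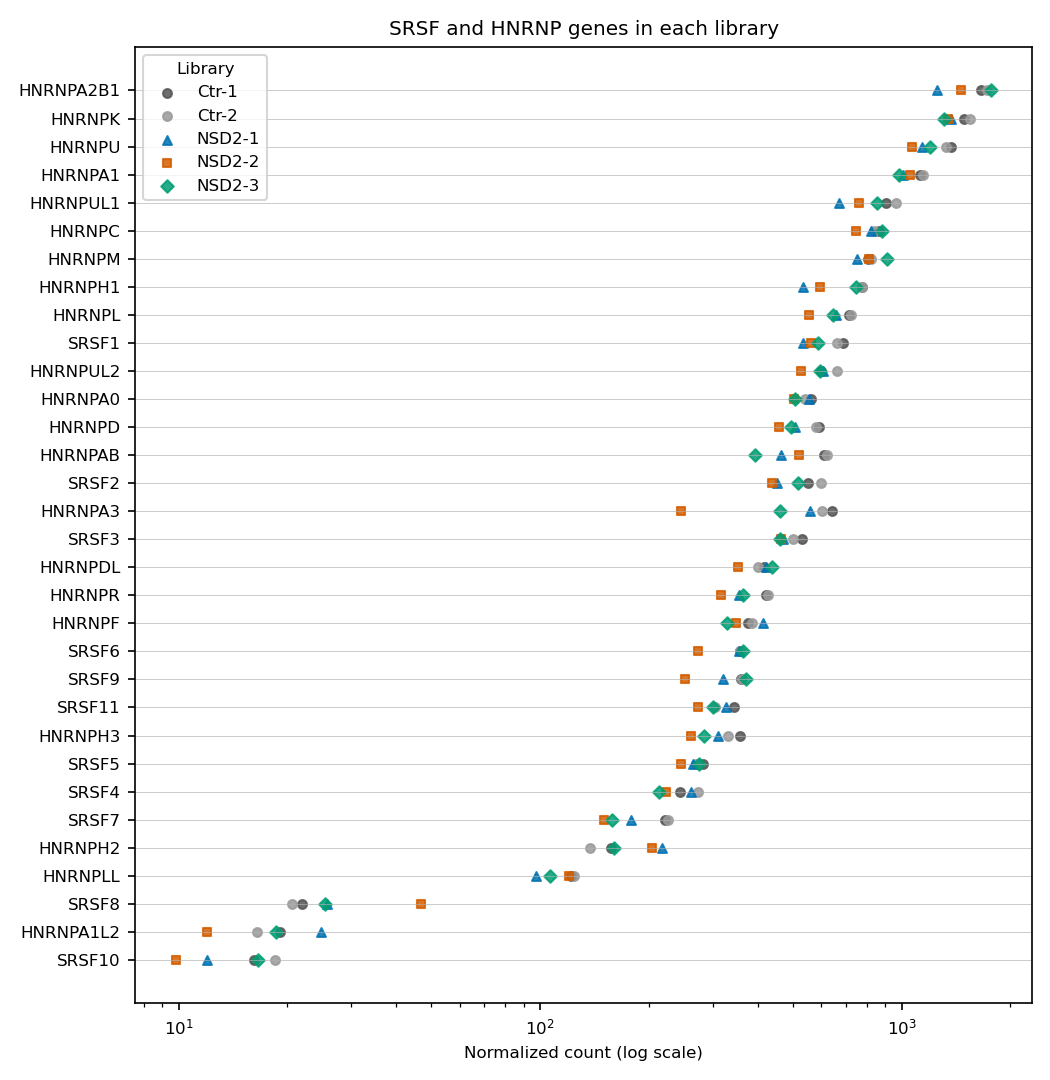
Normalized counts (log axis) of the 32 tested members, 1 symbol per library. The 3 genes at the bottom have fewer reads than the rest, and for 16 genes all 3 NSD2-KD symbols lie to the left of both Ctr-KD symbols.

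Most SRSF and HNRNP genes lay a little lower in NSD2-KD than in Ctr-KD cells, and no single member passed the test over all genes. Of the 32 tested members, 28 had a lower mean and 4 a higher one on the log2 scale, with a median log2 difference of -0.18 against -0.0089 over all 11313 tested genes. None was called at an adjusted p under 0.05 by limma, which called 0.0884% of all tested genes. None was called by edgeR (0.141% of genes called), DESeq2 (0.621%) or limma-voom (0.0884%) either. At an unadjusted p under 0.05, limma had 9 members lower (28.1%, against 4.99% of all tested genes) and 1 higher (against 4.19%). In 16 members (50%) every NSD2-KD library was below both Ctr-KD libraries, against 13.9% of all tested genes, and in 2 (6.25%) every one was above, against 13.8%. The groups overlapped in the other 14 members.

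The count of 9 changed with the setting, and the share of all tested genes at the other settings is not given here. It was 2 without the mean-variance trend, 2 in DESeq2, 1 without Ctr-1 and 0 without Ctr-2, and NSD2 itself missed the threshold when Ctr-1 or Ctr-2 was left out (adjusted p of 0.0926 and 0.0788 from limma). The counts of members whose groups do not overlap come from no fit.

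Both families showed this shift. The median log2 difference was -0.16 over the SRSF genes, with 4 of 11 below both Ctr-KD libraries in every NSD2-KD library and 1 above. It was -0.19 over the HNRNP genes, with 12 of 21 below and 1 above. Summed over all members, the normalized counts were 18209 and 18292 in Ctr-KD cells and 15955, 15209 and 16752 with NSD2-1, NSD2-2 and NSD2-3. The sums of the NSD2-KD libraries were 87.4%, 83.3% and 91.8% of the Ctr-KD mean, and the members took 0.690% and 0.689% of the normalized counts in Ctr-KD cells against 0.609%, 0.563% and 0.634%. In bulk RNA, fewer cells with high levels and less RNA per cell cannot be told apart.

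**Figure D2:**
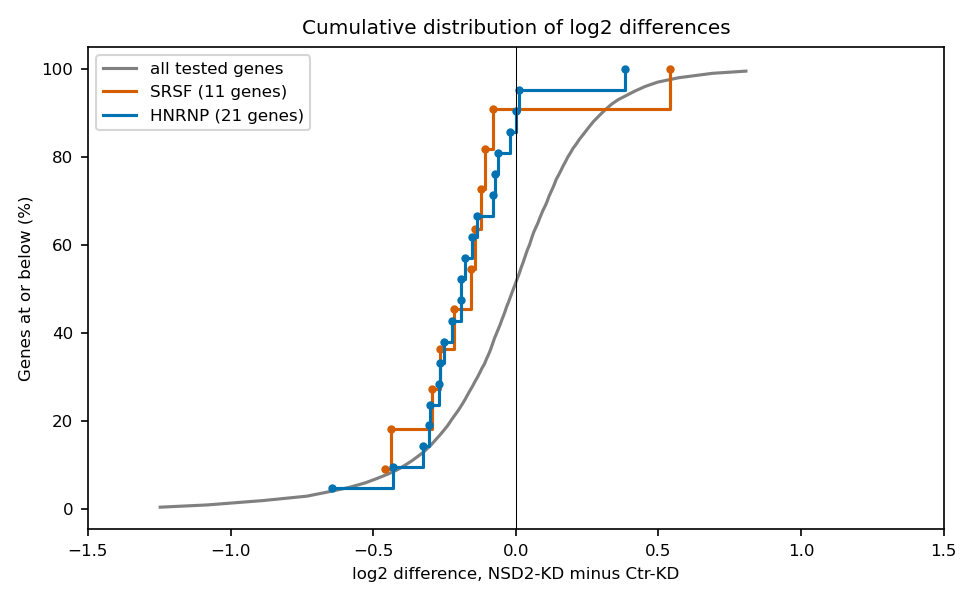
Cumulative distribution of the log2 difference between NSD2-KD and Ctr-KD cells for the 11 SRSF genes, the 21 HNRNP genes and all tested genes (grey). Both family curves lie to the left of the grey curve over most of their range, with medians of -0.16 and -0.19 against -0.0089.

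Among the SR proteins, the smallest p belonged to SRSF7, which carries a zinc knuckle beside its RNA recognition motif and acts in splicing and mRNA export. Its counts were 221 and 225 in Ctr-KD cells and 179, 151 and 158 in NSD2-KD cells. All 3 siRNAs gave a lower level than either control, and the mean was 72.8% of the Ctr-KD mean (log2 difference -0.46, SE 0.13, adjusted p = 0.313 from limma). SRSF2, an activator of exon inclusion found in nuclear speckles, was at 549.7 and 599.8 and at 454, 438 and 517. Its groups did not overlap (-0.29, SE 0.11, adjusted p = 0.469 from limma). SRSF1, the founding member of the family, was at 689 and 662 against 536, 561 and 589, with a narrow spread in both groups (-0.27, SE 0.10, adjusted p = 0.434 from limma). SRSF3, the smallest SR protein, was at 529.7 and 500.0 against 471, 464 and 462, so its 3 NSD2-KD libraries lay within 10 counts of each other below both controls, with a difference of -0.14 (95% interval -0.36 to 0.08).

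The other SR genes overlapped between the groups, apart from SRSF8. SRSF4, SRSF5 and SRSF6, which have paired RNA recognition motifs, had log2 differences of -0.16, -0.08 and -0.12, and those of SRSF9 and SRSF11 were -0.22 and -0.11. Single libraries weighed on these values, since SRSF9 was at -0.065 without NSD2-2, SRSF11 at -0.023 without Ctr-1 and SRSF4 at -0.075 without Ctr-2. Over all tested members, leaving out 1 library moved the log2 difference by over 1.5 times in 18 of 32. The 9 that were lower at an unadjusted p under 0.05 were not among them. Those 9 were picked for a difference large against the spread of these same libraries, so this gives no separate check of them. SRSF6 was at 358 in both Ctr-KD libraries and at 355, 274 and 365 in NSD2-KD cells. SRSF9 was at 360.1 and 362 against 320.2, 252 and 372. In both genes the NSD2-2 library was the lowest and NSD2-3 lay above the controls. SRSF10, which acts as a splicing repressor when dephosphorylated, had between 9 and 18 reads in each library and levels of 16.2 and 18.5 against 12.0, 9.83 and 16.6. At this depth its difference was wide (-0.44, 95% interval -1.16 to 0.28).

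SRSF8 was the SR gene with a higher level in every NSD2-KD library. Its counts were 21.9 and 20.6 in Ctr-KD cells and 25.8, 47.0 and 25.4 in NSD2-KD cells. The NSD2-2 library held 43 reads and the others between 20 and 28, and the log2 difference of 0.54 (SE 0.31, adjusted p = 0.662 from limma) was 0.26 without the NSD2-2 library.

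Among the hnRNPs of the A/B and D type, which bind AU- or UAG-containing RNA, HNRNPAB had the smallest p. It was at 611 and 622 in Ctr-KD cells and at 465, 520.0 and 394 in NSD2-KD cells. The groups were well apart, with NSD2-3 the lowest (-0.43, SE 0.13, adjusted p = 0.345 from limma). HNRNPD, a regulator of the decay of AU-rich mRNAs, was at 589.7 and 581 against 508, 459 and 495 (-0.27, SE 0.10, adjusted p = 0.448 from limma). Its relative HNRNPDL was at 417 and 400.2 against 421, 354 and 439, an overlap with a difference of -0.02 (95% interval -0.30 to 0.26). HNRNPA1, a repressor of exon inclusion, was at 1121 and 1143 against 1011, 1054 and 986, below the controls with each siRNA by a small margin (-0.15, 95% interval -0.35 to 0.04). HNRNPA2B1, the member with the largest mean count, was at 1661 and 1720.1 against 1256, 1457 and 1771, so that NSD2-3 lay above both controls. HNRNPA0 was at 562 and 541 against 555, 504 and 509, and its groups overlapped.

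HNRNPA3, another A/B-type protein, had the largest negative log2 difference of the members. Its counts were 644 and 601 in Ctr-KD cells and 558, 245 and 459.8 in NSD2-KD cells. The NSD2-2 library was at 39.3% of the Ctr-KD mean, NSD2-3 at 73.9% and NSD2-1 at 89.6%. The log2 difference was -0.65 (SE 0.30, adjusted p = 0.566 from limma), and it was -0.30 without the NSD2-2 library.

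The hnRNPs of the H and F type bind runs of guanines. HNRNPH1 was at 775 and 779 in Ctr-KD cells and at 534, 596 and 747 in NSD2-KD cells, lower with each siRNA but with NSD2-3 at 96.1% of the control mean (-0.33, SE 0.14, adjusted p = 0.544 from limma). Its close paralog HNRNPH2 went the other way, with 157 and 138 against 217, 204 and 160.1. HNRNPH2 was the only member higher at an unadjusted p under 0.05 (0.38, SE 0.16, adjusted p = 0.530 from limma), and that p was above 0.05 without Ctr-1, Ctr-2, NSD2-1 or NSD2-2, in DESeq2, in limma-voom and without the trend. The count of HNRNPH2 was 20.3% and 17.7% of that of HNRNPH1 in Ctr-KD cells and 40.7%, 34.2% and 21.4% in NSD2-KD cells. HNRNPH3 was at 357 and 330.2 against 311, 262 and 284, with no overlap (-0.27, adjusted p = 0.556 from limma), whereas HNRNPF overlapped, at 377 and 385 against 413, 348 and 329.9.

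**Figure D3:**
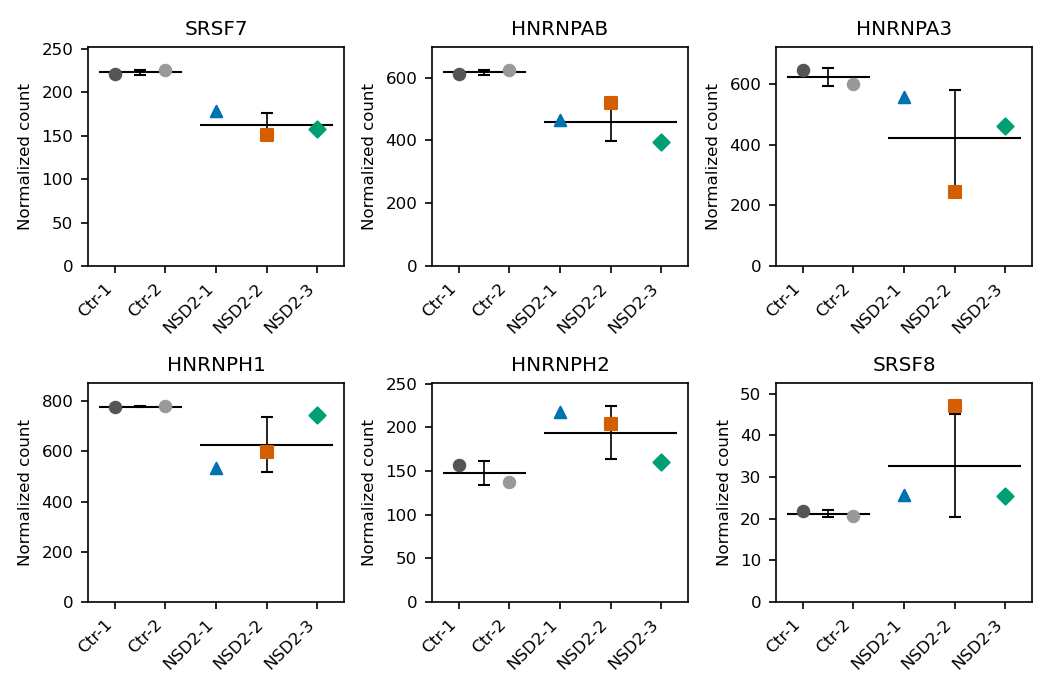
Normalized counts of 6 members in each library, with the mean (horizontal line) and SD (bar) of the 2 Ctr-KD and 3 NSD2-KD libraries and axes from 0. HNRNPA3 at 245 and SRSF8 at 47.0 in the NSD2-2 library stand apart from the other NSD2-KD libraries, and HNRNPH2 lies above its controls while HNRNPH1 lies below.

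The U type hnRNPs bind nuclear RNA and chromatin. HNRNPU, the scaffold attachment factor, was at 1373 and 1331 in Ctr-KD cells and at 1142, 1067 and 1199.7 in NSD2-KD cells. All 3 were lower than both controls (-0.25, SE 0.09, adjusted p = 0.432 from limma). HNRNPUL1 was at 904 and 967 against 673, 761 and 855, also without overlap (-0.30, SE 0.12, adjusted p = 0.493 from limma). HNRNPUL2 was at 600.2 and 663 against 605, 527 and 593, an overlap with a difference of -0.14 (95% interval -0.38 to 0.11).

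HNRNPR, which is closely related to SYNCRIP, was at 423 and 428 against 356, 317 and 363 (-0.30, SE 0.11, adjusted p = 0.434 from limma). HNRNPK, a poly(C)-binding protein with KH domains, was at 1487 and 1544 against 1366, 1346 and 1310.0, with all 3 siRNAs close together below the controls (-0.18, SE 0.08, adjusted p = 0.574 from limma). HNRNPL, which binds CA repeats, was at 716 and 726 against 659.8, 556 and 644, and its paralog HNRNPLL at 122 and 124 against 97.5, 120.2 and 106. Both had no overlap, with differences of -0.22 and -0.19. HNRNPC, which binds uridine tracts, was at 867 and 837 against 824, 748 and 882, and HNRNPM at 809.8 and 821 against 753, 813 and 909.8. Both overlapped, and the 95% intervals of their differences (-0.29 to 0.17 and -0.23 to 0.26) leave room for a change of the size seen in HNRNPK. HNRNPA1L2, an intronless copy of HNRNPA1, had between 11 and 27 reads in a library and an interval of -0.77 to 0.78.

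**Figure D4:**
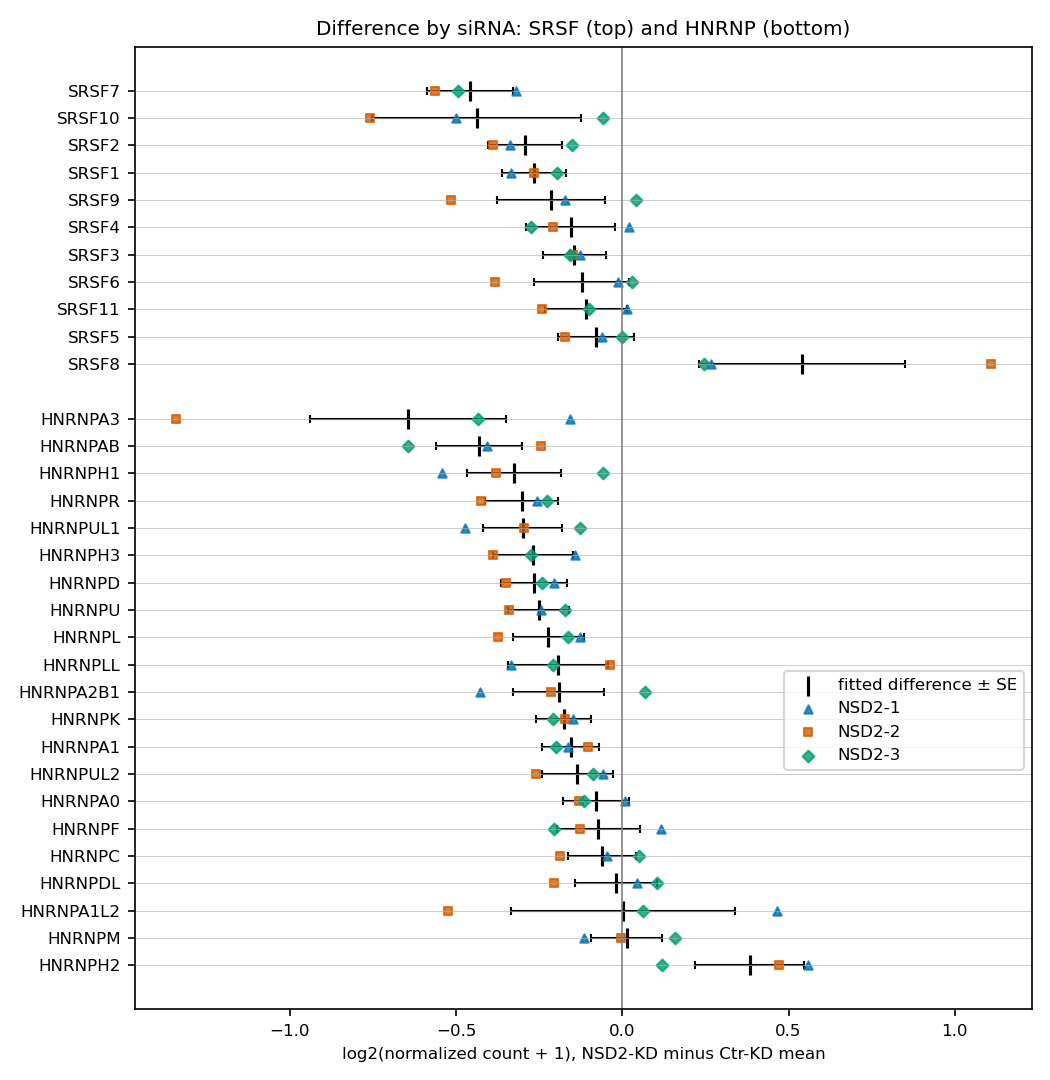
Log2 difference of each tested member from the Ctr-KD mean, by siRNA (coloured symbols), with the fitted difference and its SE (black). The black ticks lie left of 0 for 28 of the 32 genes, and the NSD2-2 squares reach furthest left in HNRNPA3.

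The siRNAs differed in how far the members lay from the controls. The median log2 difference of the members from the Ctr-KD mean was -0.15 with NSD2-1, -0.25 with NSD2-2 and -0.14 with NSD2-3, against 0.0055, 0.012 and 0.0044 over all tested genes. Below both Ctr-KD libraries were 23, 29 and 21 of the 32 members, against 38.0%, 38.8% and 38.7% of all tested genes. Above both were 5, 2 and 8 members, against 38.6%, 40.6% and 39.0%. NSD2-2 was the lowest of the 3 NSD2-KD libraries in 18 members, NSD2-3 in 8 and NSD2-1 in 6, whereas each was the lowest in 32.5% to 34.8% of all tested genes. With 1 library per siRNA, a difference between siRNAs was not tested.

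Proliferation genes were also lower in NSD2-KD cells. The study had reported lower cell cycle and DNA replication gene sets from these libraries, so the list used here gives no separate check. All 14 genes of the list, among them MKI67 and the MCM genes, were below both Ctr-KD libraries in every NSD2-KD library (against 13.9% of all tested genes). All were lower at an unadjusted p under 0.05 in limma (against 4.99% of all tested genes), and their median log2 difference was -1.13. Their summed level was 4388 and 4542 in Ctr-KD cells and 2274, 1527 and 2115 with NSD2-1, NSD2-2 and NSD2-3. The NSD2-2 library had the lowest sum both for these genes and for the members. The highest sum of the NSD2-KD libraries was that of NSD2-1 for these genes and that of NSD2-3 for the members. The part of proliferation in the levels of the members was not tested.

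The hnRNP proteins that carry other symbols were compared as a list of 10, of which 8 were tested (HNRPDL and HNRPLL appear under their newer symbols as members). The median log2 difference was -0.13, and none was higher at an unadjusted p under 0.05 in limma (against 4.19% of all tested genes). RBMX and SYNCRIP were among the genes that were lower at that p (against 4.99% of all tested genes) and had no overlap. RBMX, the hnRNP G protein, was at 328 and 345 against 260.4, 252 and 280.2 (-0.35, SE 0.11, adjusted p = 0.382 from limma), and SYNCRIP at 576 and 617 against 504, 494 and 525 (-0.23, SE 0.10, adjusted p = 0.513 from limma). PTBP1, PCBP1, PCBP2, CIRBP and RALY had differences of -0.13, -0.12, -0.12, -0.09 and 0.06.

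Of the kinases and importers of SR proteins, 0 of 8 tested genes had an unadjusted p under 0.05 in limma. Over all tested genes, 4.99% were lower and 4.19% higher at that p, so 0 of 8 does not set this list apart. None was called at an adjusted p in limma (0.0884% of all tested genes called). The median was -0.10, with 6 genes lower and 2 higher. SRPK1 and SRPK2 had log2 differences of 0.17 and -0.20, and CLK1, CLK2, CLK3 and CLK4 of -0.03, -0.15, -0.08 and 0.25. TNPO3, the importin of phosphorylated SR proteins, was below both controls in every NSD2-KD library, with 227 and 255 against 214, 149 and 214 (-0.34, SE 0.18, adjusted p = 0.628 from limma, and -0.17 without NSD2-2). TNPO1, the importin of several hnRNPs, was at 755 and 773 against 458, 907 and 827, so that NSD2-1 alone lay below the controls. SRPK3 had at most 2 reads in a library and was not tested.

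The SR-related proteins, 22 genes that carry similar repeats, had 0 genes at an unadjusted p under 0.05 in limma and a median of -0.10. Without overlap, 6 were below (27.3%) and 1 above (4.55%). Over all tested genes, 13.9% were below and 13.8% above without overlap, and at that p 4.99% were lower and 4.19% higher. The smallest p values there were those of TRA2B, at 333 and 315 against 259, 260.0 and 312 (-0.23), and BCLAF1, at 487 and 432 against 476, 354 and 320.2 (-0.28). Of the spliceosome core, 58 of 61 listed genes were tested, with a median of -0.089, 12 below (20.7%) and 4 above (6.90%). At an unadjusted p under 0.05 in limma, 1 was lower (1.72%). That gene was SNRPF, an Sm ring protein, at 64.8 and 85.4 against 57.1, 51.3 and 54.7 (-0.45, adjusted p = 0.520 from limma, and -0.25 without Ctr-2), and the next, SF3A1 of the U2 particle, was at 318 and 296 against 262, 269.8 and 233 (-0.27). Other splicing regulators had a median of -0.060 over 19 tested genes, with 1 below (5.26%) and 1 above (5.26%). RBFOX2, a regulator of mesenchymal exons, was higher with each siRNA, at 1014, 1057 and 1005 against 800.2 and 824 (0.34, SE 0.09, adjusted p = 0.267 from limma), and PTBP3 was at 167 and 202 against 191, 110.3 and 106 (-0.48). The 10 nonsense-mediated decay genes had a median of -0.0072, with 0 below and 2 above (20%). These were UPF3B (28.6 and 25.7 against 51.5, 30.6 and 36.1) and SMG6 (188 and 177 against 191, 213 and 199).

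**Figure D5:**
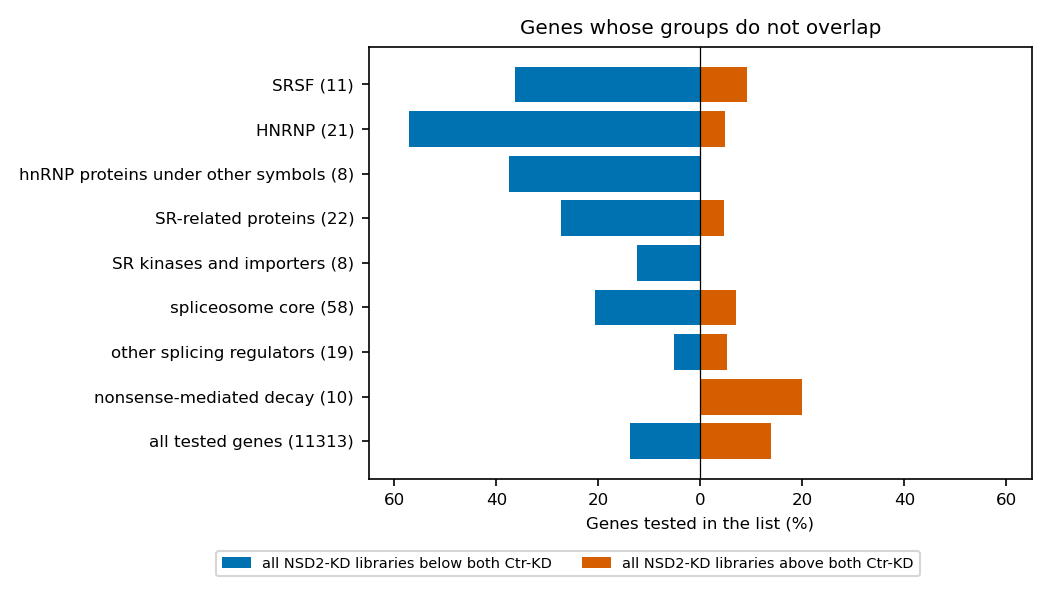
Share of tested genes whose 3 NSD2-KD libraries all lie below (blue, left) or above (orange, right) both Ctr-KD libraries, for the SRSF and HNRNP genes, 6 related lists and all tested genes, with the number tested in brackets. The blue bar of the HNRNP genes reaches 57.1% and that of the SRSF genes 36.4%, against 13.9% over all tested genes.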

How the data were processed

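The data were mRNA-seq libraries of 2 Ctr-KD and 3 NSD2-KD samples of IMR-90 cells, grouped by the sample labels. The authors mapped reads to hg19 with HISAT2, kept unique reads (SAMtools) and ran featureCounts. Its annotation and strand setting are not given in the sources used here. The signal that the authors deposited is each gene's read count divided by a DESeq2 size factor per library, so that a shift common to every gene could not be seen. Their second table, with DESeq2 base means, fold changes and p-values, was not used.

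Dividing by the smallest value of a library gave whole reads (100% of values within 0.01 reads), and depth was between 2473691 and 2845063 reads. Since the values are normalized, the test was trended limma (version 3.58.1) on log2(normalized count + 1), which understates changes of low genes. It was two-sided, without covariates, over the 11313 genes with a mean of at least 10, Benjamini-Hochberg adjusted, at a threshold of 0.05. Fits were tested on simulated data. edgeR (4.0.16), DESeq2 (1.42.0) and limma-voom on recovered reads, pseudocounts of 0.5 and 5, other filters, quantile normalization, a replicate block and each library left out were alternatives. The study's methods call the Ctr-KD libraries biological replicates and each NSD2-KD library a biological replicate with its own siRNA. Whether the cultures were separate is not given in the sources used here, and p-values measure the spread between these libraries.

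The members, gene lists and tests were chosen with earlier results of these data known. Named genes were all members, NSD2, every tested SR kinase or importer and hnRNP protein under another symbol, and the 2 genes with the smallest p in each further splicing list. Of the listed genes, 2 are not reported here. Levels per kilobase used merged exons of GENCODE on GRCh37 or, as an alternative chosen after seeing the data, the canonical transcript. Promoter windows, the first listed for each gene, came from RefSeq on GRCh38.p14.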

Additional observations from a re-analysis of the deposited data

How the results depend on the processing

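Each test rested on 2 and 3 libraries, with 1 library per siRNA. The count of members at an adjusted p under 0.05 was 0 under all 15 alternatives. Below both controls in every NSD2-KD library were between 15 and 22 members. The counts above 16 came with a library left out, where any gene separates more easily. For this count and the counts below, the share of all tested genes is given only for the main fit. The median log2 difference ranged from -0.23 to -0.13 over the SRSF and from -0.21 to -0.17 over the HNRNP genes. For the 9 members lower at an unadjusted p under 0.05, the count was 2 without the trend and 2 in DESeq2, and between 0 and 12 with a library left out. For the 1 higher, it was 0 without the trend, in DESeq2 and in limma-voom, and between 0 and 1 with a library left out. The count above both controls fell from 2 to 1 at a minimum mean of 50, since SRSF8 is then not tested, and lay between 2 and 3 with a library left out. NSD2 differed by -2.41 to -2.33 with a library left out and was not called without Ctr-1 or Ctr-2, where the lone control is assumed to vary like the other group. Otherwise the causes were not tested.

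Between the deviations of libraries with the same replicate number (Ctr-1 minus Ctr-2 and NSD2-1 minus NSD2-2), the correlation was -0.024 over 11313 genes. Ctr-1 and Ctr-2 differed by little more than counting noise, so this value cannot tell whether the libraries were paired by number. With the number as a replicate block, NSD2-3 has no partner and drops out of the fit. The lower members at an unadjusted p under 0.05 were then 12 and the higher 1, with no share of all tested genes given for this fit. The medians were -0.20 (SRSF) and -0.18 (HNRNP), and no member was called.

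Of 834 values of single genes under alternatives, 817 kept their direction and side of the threshold, and 17 in 10 genes turned their sign. With the block these were HNRNPA1L2 (-0.029), HNRNPM (-0.060) and PCBP1 (0.0021), and with quantile normalization HNRNPM (-0.0014). With each library left out in turn, the log2 difference ranged from -0.23 to 0.26 for HNRNPA1L2, from -0.12 to 0.0015 for HNRNPC, from -0.060 to 0.077 for HNRNPM, from -0.20 to 0.0080 for SRSF6, from -0.081 to 0.074 for HNRNPDL and from -0.18 to 0.12 for CLK1. It ranged from -0.34 to 0.057 for CLK2, from -0.16 to 0.027 for CLK3, from -0.31 (without NSD2-2) to 0.18 (without NSD2-1) for TNPO1 and from -0.19 to 0.0021 for PCBP1.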

Other observations

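The table also lists rows named after members that the rule leaves out, and they were looked at after their values were seen. HNRNPA1P10, a processed pseudogene that GENCODE places at chr19:11776884-11777845 on GRCh37, was listed at 1095 and 1124 in Ctr-KD cells and at 987, 1024 and 956 in NSD2-KD cells. These were between 96.9% and 98.4% of the counts of HNRNPA1 in the same libraries, and its row stands next to that of HNRNPA1 in the table. HNRNPUL2-BSCL2, a read-through gene, was at 549.7, 585, 541, 509 and 536, between 88.4% and 96.7% of the counts of HNRNPUL2, while BSCL2 itself was at 57.6 to 81.0. RPL36A-HNRNPH2, the read-through gene that contains HNRNPH2, was at 356 and 370.4 in Ctr-KD cells and at 444, 443 and 370.0 in NSD2-KD cells, between 95.6% and 99.2% of the sum of RPL36A and HNRNPH2. RPL36A was at 215, 239.7, 231, 246 and 219.6, and its groups overlapped, as did those of the read-through row. The antisense row HNRNPU-AS1 was at 166 and 163 in Ctr-KD cells and at 160.1, 162 and 147 in NSD2-KD cells, a log2 difference of -0.07 where that of HNRNPU was -0.25. How reads that lie in more than 1 annotated gene were counted is not given in the sources used here.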
